A study of Homo sapiens with 6 samples.

Results

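The genes described here encode subunits, assembly factors and regulators of the mitochondrial respiratory chain and ATP synthase. They were measured in THP-1, a human cell line established from acute monocytic leukaemia. The set, proposed with earlier results of these data known, was filled by symbol: names starting with NDUF, UQCR or ATP5, the SDH subunit and assembly factor names, COX followed by a digit, CYC1 and CYCS, without pseudogenes and names with -AS. This gave 40 of the 14884 genes that had a row with a single symbol, of which 38 were protein-coding. Cells carried a lentiviral vector (psi-LVRU6GP) expressing an shRNA against RKIP (3 arrays) or the same vector empty (control, 3 arrays), and both were selected and kept in 1.5 µg/mL puromycin. The comparison asked which genes RKIP knockdown changes in acute myeloid leukaemia cells. The labels call the arrays biological replicates but do not say whether they came from separate transductions, and they do not give the number of hairpins or clones. The p-values thus rest on array-to-array spread alone, part of which may be technical.

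The respiratory chain passes electrons from NADH at complex I and from succinate at complex II through coenzyme Q to complex III, then through cytochrome c to complex IV, which reduces oxygen to water. Complexes I, III and IV pump protons, and complex V, the ATP synthase, uses the proton gradient to make ATP. Most subunits are encoded in the nucleus and imported, a small number are encoded by mitochondrial DNA, and dedicated assembly factors insert haem, copper and other cofactors. The genes with a value cover this system unevenly. Complex IV held 23 of the 40 genes, complex III 6, the assembly factors of complexes I and II 2 and 4, and complex V 3, and the other 2 were non-coding transcripts named for a neighbouring gene. Structural subunits of complexes I and II, CYCS, most ATP synthase subunits and the 13 subunits encoded by mitochondrial DNA are not analysed here, so the set is mainly a view of complexes III and IV.

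PEBP1, which encodes RKIP, checks the labels. It stood at 8.25, 8.18 and 8.24 in the RKIP shRNA arrays, against 9.52, 9.77 and 9.75 in the control arrays (log2 values). Its log2 value fell by 1.46 (SE 0.09, adjusted p = 0.00023 by limma). Of 12 listed monocytic and myeloid markers 7 had a value, which alone does not show presence. Their mean log2 values ran from 12.89 for MPO to 4.36 for CSF1R and 2.74 for CD14, which was dim in both groups. In RKIP shRNA cells 5 of the 7 were higher (71.4%, against 10.0% of all genes tested) and 0 lower. The log2 values of the 7 summed to 56.0 to 57.2 in RKIP shRNA arrays and 50.0 to 50.6 in control arrays. LYZ and TYROBP rose most, by 2.55 and 2.37, whereas SPI1, CD68 and MPO rose by 0.49, 0.37 and 0.26. Of 24 markers of T, B, epithelial, erythroid and fibroblast cells, 11 had a value. Of these, CD5 was higher (9.09%, against 10.0% of all genes tested) and VPREB3 and KRT18 were lower (18.2%, against 10.2%). CD5 and VPREB3 had means of 4.50 and 3.94, near the median of all rows, 4.07. KRT18 at 8.11 and PAX5 at 6.71 were the brightest of the 11, and KRT18 was above the 8.02 of CD68. The log2 values of the 11 summed to 52.9 to 53.1 in RKIP shRNA arrays and 52.4 to 53.7 in control arrays. Whether these differences have a part in the results below was not tested, and in a bulk culture fewer cells of a type and less RNA per cell cannot be told apart.

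More of the 40 genes were higher than lower in RKIP shRNA cells. By limma at a Benjamini-Hochberg adjusted p under 0.05 over all genes (a call), 12 of them (30.0%) rose, against 10.0% of all genes tested, and 3 (7.50%) fell, against 10.2% of all genes tested. The rest, 25 genes, did not pass. The median log2 change of the 40 genes was 0.18, against 0.02 over all genes tested. All 12 rises were small, from 0.30 to 0.57 on the log2 scale, or 1.23-fold to 1.48-fold. Few members were dim, since 37 of 40 had a mean at or above the median of all rows, 4.07. Among all genes at or above that median 14.5% rose and 14.6% fell, so calls were more frequent among brighter genes. The count of 12 fell to 6 without RKIP shRNA replicate 1 and to 7 without RKIP shRNA replicate 3. Over all 14884 genes the rises fell as well in these fits, from 1495 to 963 and 1116. Of the 15 calls, 7 (COX6A1, COX5B, UQCRC1, ATP5MK, NDUFAF8, COX11 and COX10-DT) were kept on leaving out any 1 array. The COX6A1 call rests on a probe whose signal cannot be assigned with certainty, as described with complex IV, and with the gene's second probe in its place 11 members rose.

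**Figure D1:**
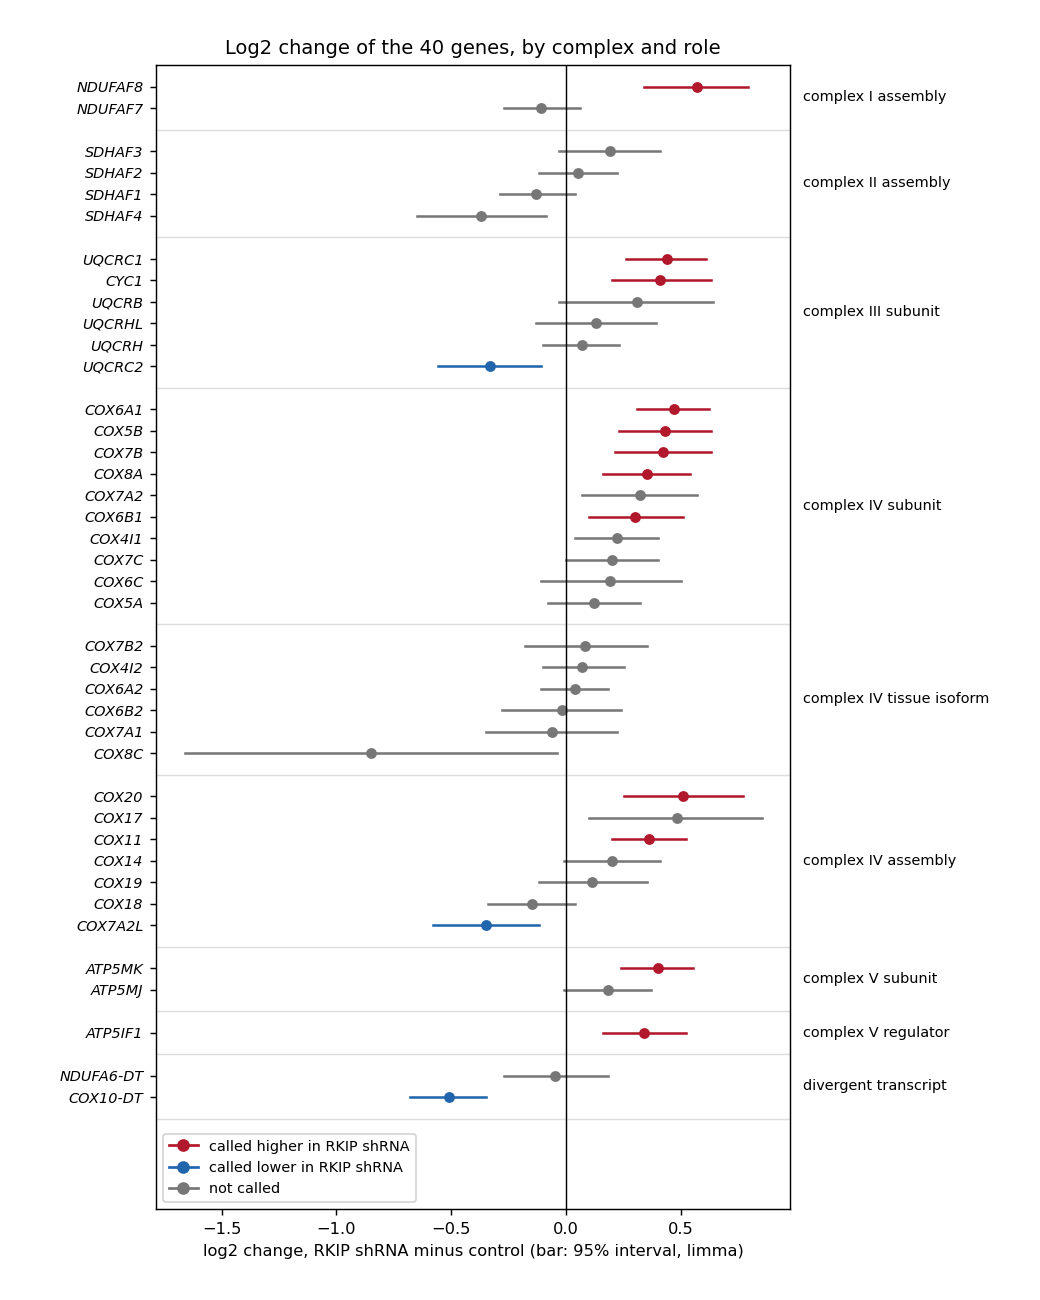
The horizontal axis gives the log2 change of each of the 40 genes, RKIP shRNA minus control, as a point with its 95% interval from limma (3 arrays per group), and the rows are grouped by complex and role. All 10 complex IV subunits lie right of 0, whereas the tissue isoforms of complex IV lie near 0 apart from COX8C at -0.85, which was dim and not called.

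The promoters of the members were searched for the cores of 4 motifs known from respiratory chain genes. RefSeq (GRCh38.p14) gave a window of 250 bases before to 50 after the start for 33 of the 40 genes, and where a gene had several windows the first listed was taken. The letters CCGGAAG, the core recognised by ETS factors such as GABP, were sought on both strands and lay in 11 of 33 windows (33.3%), against 10.7% of the windows of 27305 genes. They lay in 5 of 10 windows of genes that rose (COX6A1 among them), 1 of 3 of genes that fell and 5 of 20 of genes not called. The letters GCATGCGC, the core of the site of NRF1, lay in 6 of 33 windows (18.2%), against 3.27% of all windows. AAGATGGC, the core of the YY1 site, lay in 3 (9.09%, against 3.03%), and TCAAGGTCA, the site of ERR receptors, in 0 of 33 (0.359% of all windows). The 27305 genes include genes without a value here, whereas most members were bright and protein-coding. The shares among genes like the members in these respects were not counted. These shares were not tested, and a match of letters is not a shown binding site.

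Of the 5 genes that rose and hold the ETS letters, those other than COX6A1 are printed from 60 bases before to 10 after the start, in the direction of the gene, with the motif letters in capitals on whichever strand they lie (CTTCCGG is the reverse complement of CCGGAAG). In all 5 a copy lies within 60 bases of the start. COX5B has copies at 37 and at 5 bases before it, and ATP5MK has further copies at 160 and 163 bases before it, outside the printed stretch.
ATP5MK, chr10:103396466-103396535 on the minus strand: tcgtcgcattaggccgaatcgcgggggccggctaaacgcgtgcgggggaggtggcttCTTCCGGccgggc
COX5B, chr2:97646002-97646071 on the plus strand: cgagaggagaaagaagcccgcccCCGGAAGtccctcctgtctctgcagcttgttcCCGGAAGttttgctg
COX6B1, chr19:35648263-35648332 on the plus strand: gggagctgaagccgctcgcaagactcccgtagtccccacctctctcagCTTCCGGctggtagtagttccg
COX8A, chr11:63974560-63974629 on the plus strand: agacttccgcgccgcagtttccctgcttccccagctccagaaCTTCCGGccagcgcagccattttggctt

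The 3 genes that fell are printed for comparison, COX10-DT from 100 bases before its start. UQCRC2 and COX7A2L hold none of the 4 motifs anywhere in their windows, and COX10-DT holds the YY1 letters (GCCATCTT on this strand) and the ETS letters. COX10-DT starts 46 bases from the start of COX10 and runs the other way, so its window is also the promoter of COX10, an enzyme gene of haem a synthesis that is not analysed here.
COX7A2L, chr2:42361208-42361277 on the minus strand: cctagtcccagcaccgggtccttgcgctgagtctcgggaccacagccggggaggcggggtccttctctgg
UQCRC2, chr16:21953301-21953370 on the plus strand: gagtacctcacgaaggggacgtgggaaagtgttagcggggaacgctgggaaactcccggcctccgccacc
COX10-DT, chr17:14069449-14069558 on the minus strand: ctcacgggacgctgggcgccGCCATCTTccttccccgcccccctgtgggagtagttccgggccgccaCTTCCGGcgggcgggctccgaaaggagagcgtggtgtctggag

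Complex IV, cytochrome c oxidase, had the most members. Of its 10 nuclear structural subunits expressed in most tissues, 5 rose (50.0%, against 10.0% of all genes tested) and 0 fell (against 10.2%). The other 5 did not pass. The fitted change was above 0 for all 10, with a median of 0.31, and for 8063 of the 14884 genes tested. COX6A1 is counted here by its brighter probe. COX6A1, a membrane-spanning subunit, stood at 12.34, 12.22 and 12.27 in RKIP shRNA arrays, against 11.81, 11.83 and 11.78 in control arrays. The groups were well apart, and the log2 change was 0.47 (SE 0.07, adjusted p = 0.0036), or 38.4% more signal. A second COX6A1 probe was dim (mean 3.57) and gave 0.15 with an adjusted p of 0.39, so it did not share the call, and the mean of both probes gave 0.31 (adjusted p = 0.022). The 10 named probes nearest in ID to the bright one all belong to genes of chromosome 6, whereas COX6A1 lies on chromosome 12, as do the genes of all 10 neighbours of the dim probe. Of the 42 probes of the members, 41 had neighbours mostly from their gene's own chromosome, and the bright COX6A1 probe was the exception. RefSeq lists 6 pseudogene copies of COX6A1, 2 of them on chromosome 6, so the bright signal cannot be assigned with certainty to COX6A1 itself. With the dim probe in its place, an alternative chosen after seeing the data, 4 of the 10 complex IV subunits rose.

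COX5B, a zinc-binding subunit on the matrix side, was at 7.39, 7.60 and 7.39 in RKIP shRNA arrays, against 7.03, 6.98 and 7.08 in control arrays, and rose by 0.43 (SE 0.08, adjusted p = 0.012). COX7B, a small membrane-spanning subunit, was at 7.75, 7.49 and 7.65 in RKIP shRNA arrays, against 7.14, 7.23 and 7.26 in control arrays, without overlap. It rose by 0.42 (SE 0.09, adjusted p = 0.016). COX8A, the ubiquitous form of subunit VIII, was at 11.43, 11.49 and 11.49 in RKIP shRNA arrays, against 11.00, 11.24 and 11.11 in control arrays. It rose by 0.35 (SE 0.08, adjusted p = 0.022). COX6B1, a subunit on the intermembrane side that joins the enzyme's dimer, was at 8.05, 8.18 and 8.10 in RKIP shRNA arrays, against 7.69, 7.79 and 7.94 in control arrays. Its groups were closest of these 5, and it rose by 0.30 (SE 0.09, adjusted p = 0.047). When single arrays were left out, COX6B1 and COX8A each failed in 5 of 6 fits and COX7B in 4. The count of 5 complex IV subunits became 2 without RKIP shRNA replicate 1, RKIP shRNA replicate 3 or control replicate 1, and 3 without control replicate 2. Rises over all genes went from 1495 to 963, 1116, 1087 and 969 in these fits, in the same order.

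The other 5 complex IV subunits had changes from 0.12 to 0.32. COX7A2, the ubiquitous form of subunit VIIa, was at 7.17, 6.89 and 7.24 in RKIP shRNA arrays, against 6.72, 6.74 and 6.88 in control arrays. Its lowest RKIP shRNA array stood barely above the highest control array, with a log2 change of 0.32 (95% interval 0.07 to 0.57, adjusted p = 0.08). COX4I1, the ubiquitous form of subunit IV, had a change of 0.22 and an adjusted p of 0.084, and COX7C one of 0.20 with an adjusted p of 0.16. The groups did not overlap for any of these 3 genes either. COX6C at 0.19 and COX5A at 0.12 had groups that overlapped (adjusted p = 0.37 and 0.39). In all, 8 of the 10 subunits, with COX6A1 by its brighter probe, had every RKIP shRNA array above every control array. This holds for 19.8% of all genes tested. Among genes at or above the median of all rows, as all 10 were, it held for 2574 of 9684.

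**Figure D2:**
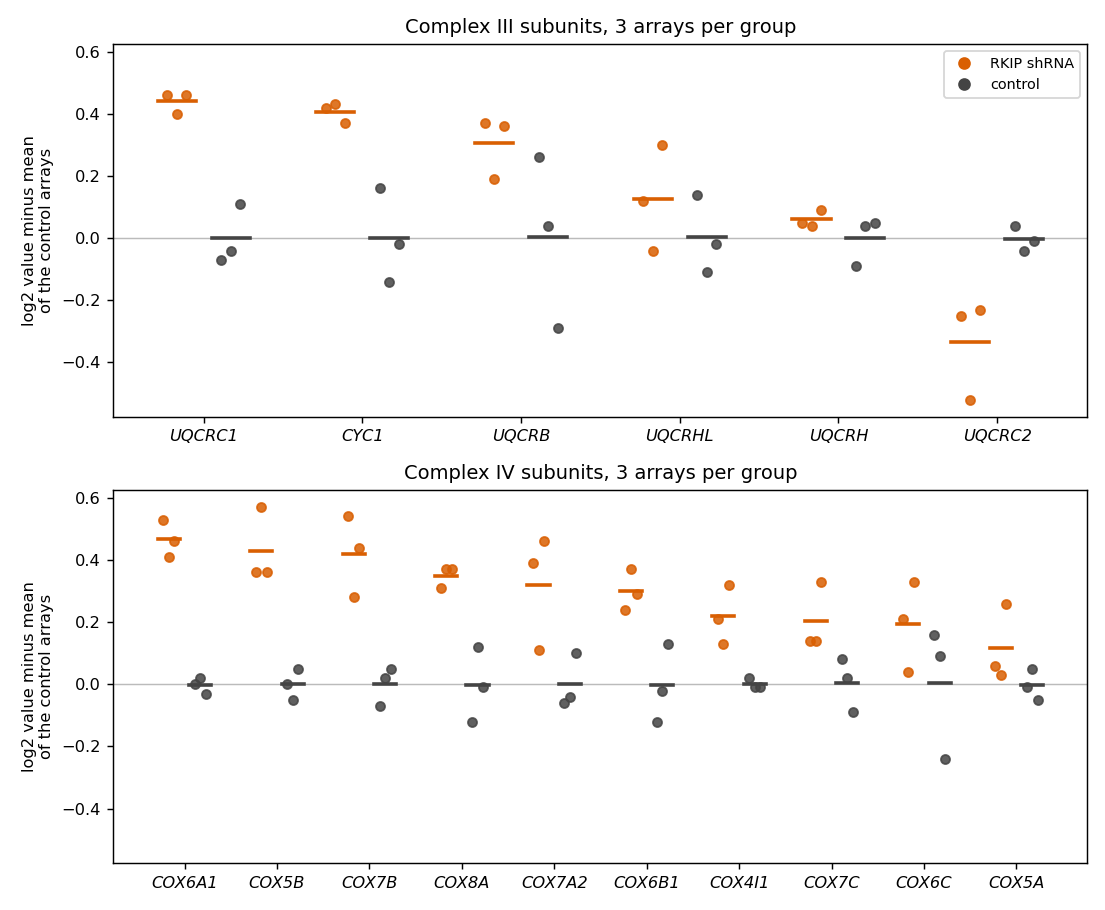
Each point is 1 array, given as its log2 value minus the mean of the control arrays for that gene, with RKIP shRNA left of control and a bar at each group's mean. The upper panel holds the 6 complex III subunits and the lower panel the 10 complex IV subunits, and UQCRC2 is the single gene of the 16 whose RKIP shRNA arrays all lie below the control arrays.

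The RKIP shRNA arrays did not share the shift equally. The median deviation of the 10 complex IV subunits from their control means was 0.28, 0.21 and 0.34 in RKIP shRNA replicates 1, 2 and 3, against -0.01, 0.02 and -0.01 in the control arrays. Over all 40 genes it was 0.21, 0.08 and 0.29 in the RKIP shRNA arrays, against 0.02, 0.00 and -0.02 in the control arrays. By these medians RKIP shRNA replicate 2 was the array nearest to control. This did not hold for every gene, since UQCRC2, COX7A2L, COX5B and COX6B1 were farthest from their control means in that array. The 13 assembly factors, COX7A2L counted among them, had medians of 0.09, 0.08 and 0.09 in RKIP shRNA replicates 1, 2 and 3. The median over all genes tested was between 0.01 and 0.03 in the 3 RKIP shRNA arrays.

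Tissue-restricted isoforms of complex IV subunits, which replace the ubiquitous forms in tissues such as heart and skeletal muscle, lung or testis, did not pass the test in any case. Their 6 genes had a median log2 change of 0.01. COX4I2, the lung-enriched and oxygen-responsive form, changed by 0.07, COX6A2 and COX7A1, the heart and muscle forms, by 0.04 and -0.06, and COX6B2 and COX7B2, forms known from testis, by -0.02 and 0.08. COX6B2, COX7B2 and COX8C were below the 4.07 row median in both groups and COX7A1 in RKIP shRNA cells, and changes of such dim signals are compressed by background. COX8C, another testis form, was at 2.73, 2.26 and 2.72 in RKIP shRNA arrays, against 4.24, 2.85 and 3.18 in control arrays. Its control arrays were spread widely, and the change of -0.85 had a 95% interval from -1.66 to -0.04 and an adjusted p of 0.14.

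The genes grouped as assembly factors of complex IV include COX7A2L, a supercomplex factor described below. Of 7 with a value, 2 rose (28.6%, against 10.0% of all genes tested) and 1 fell (14.3%, against 10.2%). The 1 that fell was COX7A2L, and its call was lost on leaving out any 1 array. The other 4 did not pass, and the median of the 7 was 0.20. COX20, a chaperone of the mitochondrially encoded subunit COX2, was at 9.24, 9.18 and 9.41 in RKIP shRNA arrays, against 8.80, 8.92 and 8.58 in control arrays. Every RKIP shRNA array was above the control arrays, and the change was 0.51 (SE 0.11, adjusted p = 0.018), although it failed in 3 of the 6 leave-one-out fits. COX11, which helps to place copper in subunit COX1, was at 7.58, 7.51 and 7.66 in RKIP shRNA arrays, against 7.23, 7.22 and 7.21 in control arrays, and rose by 0.36 (SE 0.07, adjusted p = 0.01).

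COX17, the copper chaperone that hands copper to SCO1 and COX11, was at 6.70, 6.35 and 6.56 in RKIP shRNA arrays, against 6.38, 5.97 and 5.84 in control arrays. Control replicate 1 overlapped the RKIP shRNA arrays, and the change of 0.48 did not pass (adjusted p = 0.08). Without that array the change was 0.63 with an adjusted p of 0.025. COX14 at 0.20, COX19 at 0.11 and COX18 at -0.15, which act on subunit COX1, copper delivery and subunit COX2, did not pass (adjusted p = 0.17, 0.51 and 0.26).

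COX7A2L, also called SCAF1, links complexes III and IV into supercomplexes and is a paralogue of the subunit gene COX7A2. It was at 6.74, 6.53 and 6.73 in RKIP shRNA arrays, against 7.16, 6.93 and 6.96 in control arrays. Every RKIP shRNA array was lower, and its log2 value fell by 0.35 (SE 0.10, adjusted p = 0.045), a call that was lost on leaving out any 1 array.

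Complex III, the cytochrome bc1 complex, had 6 genes with a value. Of these, 2 rose (33.3%, against 10.0% of all genes tested), 1 fell (16.7%, against 10.2%) and 3 did not pass. UQCRC1, which encodes core protein 1, was at 9.07, 9.01 and 9.07 in RKIP shRNA arrays, against 8.54, 8.57 and 8.72 in control arrays, and rose by 0.44 (SE 0.07, adjusted p = 0.0074). CYC1, which encodes the haem-carrying subunit cytochrome c1, was at 9.55, 9.56 and 9.50 in RKIP shRNA arrays, against 9.29, 8.99 and 9.11 in control arrays. The RKIP shRNA arrays were close together and above all control arrays, and CYC1 rose by 0.41 (SE 0.09, adjusted p = 0.02), although it failed in 4 of the 6 leave-one-out fits.

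UQCRC2, which encodes core protein 2, the partner of UQCRC1, went the other way. It was at 10.91, 10.64 and 10.93 in RKIP shRNA arrays, against 11.20, 11.12 and 11.15 in control arrays. It fell by 0.33 (SE 0.09, adjusted p = 0.049), and leaving out any 1 array ended the call.

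UQCRB, a subunit that binds coenzyme Q, had a change of 0.31 but a wide interval, -0.03 to 0.64, because its control arrays were spread from 5.28 to 5.83. UQCRH, the hinge protein gene, changed by 0.07 and its intronless copy UQCRHL by 0.13, and neither passed (adjusted p = 0.59 and 0.5). UQCRH and UQCRHL are near-identical in sequence, and their probes had mean log2 values of 7.42 and 9.93. Without probe sequences it could not be checked whether either probe also reads the other gene.

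For complex V, 3 genes had a value. ATP5MK, a small membrane subunit that helps ATP synthase to form dimers, was at 8.06, 8.05 and 8.12 in RKIP shRNA arrays, against 7.72, 7.68 and 7.64 in control arrays. Arrays of a group were within 0.08 of each other, and ATP5MK rose by 0.40 (SE 0.06, adjusted p = 0.0063). ATP5IF1, the inhibitor that stops ATP synthase from running in reverse and consuming ATP, was at 7.37, 7.32 and 7.46 in RKIP shRNA arrays, against 7.12, 7.04 and 6.96 in control arrays. It rose by 0.34 (SE 0.08, adjusted p = 0.02) but failed in 4 of the 6 leave-one-out fits. ATP5MJ, another small membrane subunit, changed by 0.18 and did not pass (adjusted p = 0.18).

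The assembly factors of complexes I and II gave 1 rise among 6 genes, where 10.0% of all genes tested rose. NDUFAF8, which stabilises the complex I assembly factor NDUFAF5, was at 8.70, 8.52 and 8.70 in RKIP shRNA arrays, against 8.13, 8.17 and 7.92 in control arrays. It had the largest rise of the 40 genes, 0.57 on the log2 scale (SE 0.10, adjusted p = 0.0072). NDUFAF7, a methyltransferase that modifies a complex I subunit, changed by -0.11 (adjusted p = 0.35). For complex II, SDHAF4, which binds the flavin-carrying subunit SDHA, was at 5.37, 5.46 and 5.10 in RKIP shRNA arrays, against 5.73, 5.52 and 5.79 in control arrays. Its groups did not overlap, but the change of -0.37 did not pass (adjusted p = 0.069). SDHAF1 and SDHAF3, which help to insert iron-sulphur clusters in SDHB, changed by -0.13 and 0.19, and SDHAF2, which helps to attach the flavin to SDHA, by 0.05, and none of these 3 passed (adjusted p from 0.22 to 0.71).

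Both non-coding members are divergent transcripts, named for the gene beside them. COX10-DT was at 7.28, 7.35 and 7.26 in RKIP shRNA arrays, against 7.89, 7.76 and 7.78 in control arrays. Its log2 value fell by 0.51 (SE 0.07, adjusted p = 0.0033), was the largest fall among the called members, and kept its call on leaving out any 1 array. NDUFA6-DT changed by -0.05 (adjusted p = 0.79), while its second, dimmer probe gave -0.60 and did not pass either (adjusted p = 0.11).

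**Figure D3:**
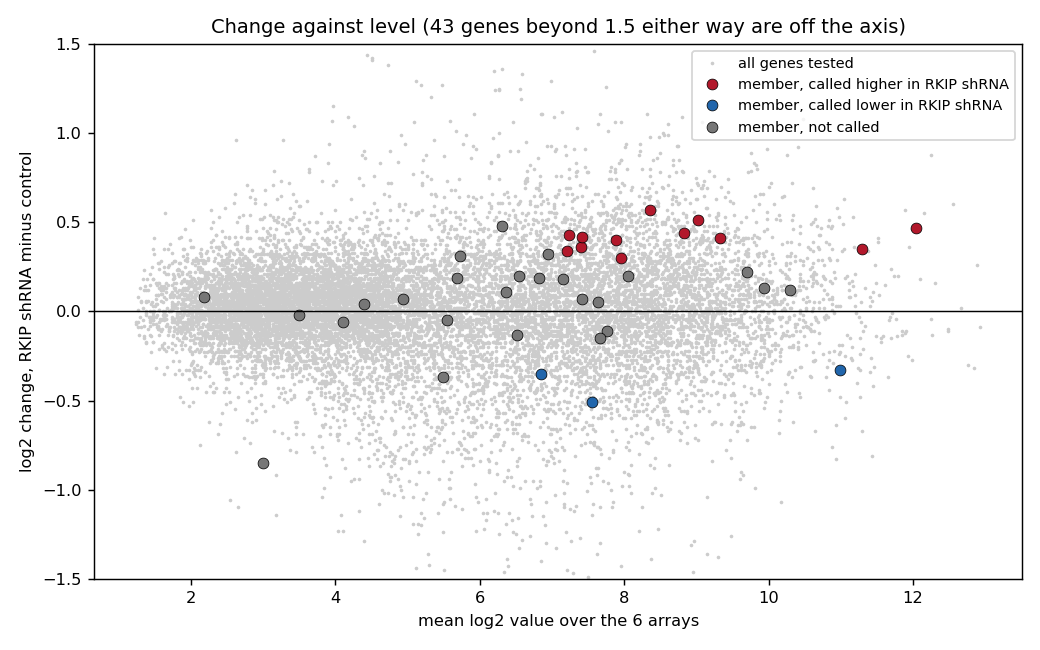
The horizontal axis is each gene's mean log2 value over the 6 arrays and the vertical axis its log2 change, RKIP shRNA minus control, with all genes tested in grey and the 40 members marked by call. The 12 members that rose have changes between 0.30 and 0.57, and 43 genes beyond 1.5 in either direction are off the axis.

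Genes that serve the chain under other names were counted from lists of textbook members. Of 34 further assembly factors 29 had a value, with a median log2 change of 0.10. Of the 29, 10 rose (34.5%, against 10.0% of all genes tested), 2 fell (6.90%, against 10.2%) and 17 did not pass. Among all genes at or above the median of all rows, 14.5% rose and 14.6% fell. COA3, which stabilises newly made subunit COX1, was at 8.22, 8.25 and 8.36 in RKIP shRNA arrays, against 7.31, 7.33 and 7.16 in control arrays. It rose by 1.01 (SE 0.08, adjusted p = 0.00049), or 2.01-fold, which exceeds the change of every one of the 40 members that passed. HCCS, the enzyme that attaches haem to cytochromes c and c1, was at 8.82, 8.84 and 8.95 in RKIP shRNA arrays, against 8.20, 8.19 and 8.17 in control arrays, and rose by 0.69 (adjusted p = 0.00097).

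Complex III assembly genes were again of mixed direction. UQCC2 rose by 0.52 (adjusted p = 0.0031), and UQCC3 rose by 0.50 (adjusted p = 0.0096), whereas UQCC1 fell by 0.34 (adjusted p = 0.017). UQCC1 and UQCC2 work together on newly made cytochrome b. UQCC1 was at 8.80, 8.94 and 8.81 in RKIP shRNA arrays, against 9.24, 9.16 and 9.17 in control arrays, and failed in 4 of the 6 leave-one-out fits. LYRM7, a chaperone of the iron-sulphur subunit, fell by 0.49 (adjusted p = 0.014). FOXRED1 and TIMMDC1, both complex I assembly factors, rose by 0.51 and 0.42 (adjusted p = 0.0036 and 0.0044). UQCC1, UQCC3, LYRM7 and TIMMDC1 were named after their values were seen.

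Neighbouring pathways were counted in the same way. Of 11 TCA cycle and pyruvate dehydrogenase genes with a value, 3 rose (27.3%, against 10.0% of all genes tested) and 0 fell. OGDH, a 2-oxoglutarate dehydrogenase subunit, rose by 0.52, DLAT, the E2 subunit of pyruvate dehydrogenase, by 0.39, and PDHB, a subunit of its E1 enzyme, by 0.28 (adjusted p = 0.0026, 0.0084 and 0.047). PDHB failed in 5 of the 6 leave-one-out fits. Of 9 listed carrier, channel and creatine kinase genes 3 had a value, all of them VDAC channels of the outer membrane, and of these VDAC3 rose by 0.38 (adjusted p = 0.01). No gene passed by limma among 6 of coenzyme Q synthesis, 5 of electron entry to coenzyme Q and 6 regulators of mitochondrial biogenesis. At an unadjusted limma p under 0.05 these lists held COQ8B at -0.25, SQOR at 0.29, NRF1 at 0.21 and YY1 at 0.25. Their adjusted p values were 0.15, 0.059, 0.12 and 0.13. An unadjusted limma p of 0.048 for COQ8B became 0.15, so p values this small were frequent over all genes tested. The share of all genes at that unadjusted p was not counted, and these genes are not read as a result.

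**Figure D4:**
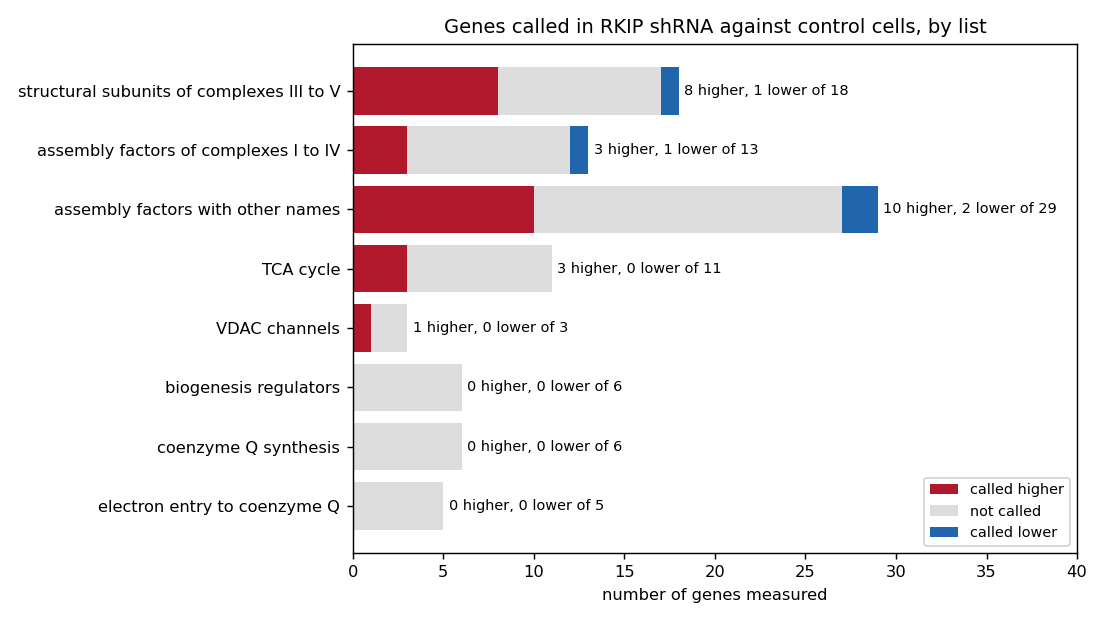
Bars give the number of genes with a value in each list, split into those called higher in RKIP shRNA than in control cells, those not called and those called lower (limma adjusted p under 0.05). The structural subunits of complexes III to V had 8 higher and 1 lower of 18, and the further assembly factors 10 higher and 2 lower of 29. Of all genes tested, 10.0% were called higher and 10.2% lower. COX6A1 counts as higher by its brighter probe.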

How the data were processed

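The single deposited table holds the authors' processed values of 6 Affymetrix Human Gene ST arrays, 53617 rows on a log2 scale. The log2 scale of the deposited values is inferred from a range of 0.72 to 14.0 and medians of 4.06 to 4.10 per array. How the authors summarised and normalised the values, and on which build, is not given in the sources used here, and without detection calls a dim gene cannot be told from an absent one. Per the labels' protocols, 250 ng of total RNA was labelled per array. Rows with a single symbol in the array annotation (16098) were used, with the brightest probe per gene, and all 14884 genes matched the RefSeq gene table. RKIP shRNA was compared with control in limma 3.58.1 (R 4.3.3; lmFit, eBayes, default prior, no filter), with Benjamini-Hochberg adjustment over all genes. The fit was tested on simulated arrays. The members, lists, motifs and roles were chosen with earlier results of these data known. Named were PEBP1, every called member, the uncalled member with the largest change per class, the tissue isoforms, and up to 4 called genes per related list, with further genes where stated. No batch is given in the labels. Figures used matplotlib 3.10.9. The number of arrays, 3 per group, limits the precision.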

Additional observations from a re-analysis of the deposited data

How the results depend on the processing

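Over median centring, quantile normalisation, array weights, a trended and robust prior, a replicate block, leaving out dim genes, the mean of probes, all rows, a threshold of 0.01, leaving out each array, and, chosen after seeing the data, protein-coding genes alone and COX6A1 by its second probe, no called member or called gene of the related lists changed sign. Cell type markers were not run under these alternatives. PEBP1 stayed between -1.54 and -1.41 and called, and the median of the 40 genes lay between 0.13 and 0.23. The counts moved more. Of the 12 members that rose, 6 did so with all rows tested, which tests more features, and 4 at 0.01. Structural subunits that rose numbered 4 and 3 there, and complex IV subunits 2 and 1, against 8 and 5. Members that fell numbered 1 with median centring, all rows, 0.01 and the replicate block, against 3. Over all genes, 2439 features fell with all rows, and 697 rose and 775 fell at 0.01. On leaving out 1 array, 6 to 10 members rose and 1 fell, 4 to 6 structural and 2 to 4 complex IV subunits rose, and 963 to 1212 genes rose and 1018 to 1270 fell. With a trended and robust prior or without dim genes 15 members rose and 4 fell, among them COX4I1, COX7A2, COX17 and SDHAF4. Over all genes 1953 rose and 1916 fell with that prior. Of the 9684 genes left without dim genes, 1882 rose and 1808 fell. Same-numbered arrays of the groups correlated in their deviations at 0.02, 0.00 and -0.02, so no pairing shows in these values. Such correlations cannot exclude that same-numbered arrays were handled together. With the replicate block 9 members rose, 3 of them complex IV subunits. With the second COX6A1 probe 11 members, 7 structural and 4 complex IV subunits rose. The cause of the lost calls was not tested. Values near the median of all rows are dim, which limits the tissue isoforms.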
